A study of Mus musculus with 22 samples.

Results

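The 48 genes described here encode the machinery that licenses, fires and copies replication origins, the enzymes that supply nucleotides for it, the cyclins and kinases that start S phase, and the E2F factors with several of their well known targets in repair and chromatin. They were taken by name from a list of mm10 genes, 48 of 21883 protein-coding genes, and the rule itself uses no measured value. The list was, however, chosen with earlier results of these data known, so its shares beside those of all genes are descriptions only. In each of the 16 deposited peak lists, a gene has a peak if at least one reaches to within 1 kb of one of its ends. "E2F targets" is the name of the list: none of the lists is an E2F ChIP, and the E2F sequence motif was counted separately, as given below.

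E2F factors are held off their target promoters' activation by pocket proteins in resting cells, and cyclin-dependent kinases release them as cells commit to S phase. Their targets include the MCM helicase that is loaded on origins, the polymerases of the fork and the E2F genes themselves, and in the intestine these genes are used by the dividing cells of the crypts. PCGF6 is the subunit that defines the variant Polycomb complex PRC1.6, which in mouse cells also holds E2F6, MGA and the ubiquitin ligase RING1B. RING1B places the H2AK119ub1 mark, while CTCF and the cohesin subunit RAD21 hold chromatin loops.

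The study mapped these proteins and the mark by ChIP-seq in small intestinal crypts of C57BL/6 mice that had lost Pcgf6 (KO) or were wild type (WT). Crypts came from a pair of Cre lines, AhCre, which β-naphthoflavone (BNF) induces, and Villin, which tamoxifen induces and which acts in the intestinal epithelium. The lists cover PCGF6, RING1B and H2AK119ub1 in KO and in WT AhCre crypts, RING1B, H2AK119ub1, CTCF and RAD21 in KO and in WT Villin crypts, and PCGF6 and RING1B in WT E14 embryonic stem cells (ESC). The design text gives male mice of 8 to 12 weeks and crypts collected 7 days after induction, written for RNA, and whether it covers the ChIP crypts is not stated. The deleted exons, the number of animals per library and whether the WT mice carried Cre or received the inducer are not given in the sources used here. For the ESC libraries, one line of the description names PCGF6 and RING1B the other way round from the title, the antibody tag and the second line, which were followed here.

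With 1 library in each group there is no replicate error, and no difference between groups was tested. The value of a peak is the authors' score, a −log10 p or q value, and every deposited peak scored 10 or more. Scores were not scaled between libraries and read depth is unknown, so a gene without a peak is one at which no peak reached the lists, not one shown to be unbound. The 16 lists held 1662 to 32651 peaks, with 4779 in the KO PCGF6 list and 17163 in the WT PCGF6 list of AhCre crypts. Peak lists do not show the deleted exons or the transcript of Pcgf6. With read depth unknown, the shorter KO PCGF6 list does not measure how complete the deletion was. The highest PCGF6 score was 1458 in the KO list and 1678 in the WT list. What the PCGF6 peaks left in the KO list represent was not tested. The RefSeq table of mm10 (GRCm38.p6) gave transcript starts for 42 of the 48 genes, and all but Mcm4, Gins1, Gins2, Ccna2, Ccne2 and Pole were therefore also examined at their starts alone.

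Promoters of 6 of the genes are shown because they span the PCGF6 results. Mcm3 kept its PCGF6 peak in KO crypts and holds E2F motifs. Hells and E2f7 hold an E2F motif and lost strong peaks, Top2a and Cdca7l lost stronger ones without holding that motif, and Ung kept one of the strongest peaks. Each sequence runs 5′ to 3′ from 250 bases before the transcript start to 50 bases after it, as RefSeq gives it on GRCm38.p6. Capitals mark the E2F motif in Mcm3, Hells and E2f7, and the CHR motif (cell cycle genes homology region) in Top2a, while Cdca7l and Ung held none of the motifs searched.
Mcm3, chr1:20820263-20820562, minus strand: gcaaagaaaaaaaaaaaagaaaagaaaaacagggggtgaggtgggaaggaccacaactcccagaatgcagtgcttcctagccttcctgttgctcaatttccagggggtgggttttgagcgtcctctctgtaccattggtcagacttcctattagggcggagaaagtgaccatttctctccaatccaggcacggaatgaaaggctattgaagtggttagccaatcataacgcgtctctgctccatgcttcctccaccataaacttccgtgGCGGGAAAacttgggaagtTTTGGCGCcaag
Hells, chr19:38930740-38931039, plus strand: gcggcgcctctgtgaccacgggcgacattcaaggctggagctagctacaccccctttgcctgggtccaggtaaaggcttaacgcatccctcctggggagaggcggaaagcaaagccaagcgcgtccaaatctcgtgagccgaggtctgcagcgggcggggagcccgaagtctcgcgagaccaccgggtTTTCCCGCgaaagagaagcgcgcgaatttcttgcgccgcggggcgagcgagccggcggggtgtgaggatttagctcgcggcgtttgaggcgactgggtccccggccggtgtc
E2f7, chr10:110745189-110745488, plus strand: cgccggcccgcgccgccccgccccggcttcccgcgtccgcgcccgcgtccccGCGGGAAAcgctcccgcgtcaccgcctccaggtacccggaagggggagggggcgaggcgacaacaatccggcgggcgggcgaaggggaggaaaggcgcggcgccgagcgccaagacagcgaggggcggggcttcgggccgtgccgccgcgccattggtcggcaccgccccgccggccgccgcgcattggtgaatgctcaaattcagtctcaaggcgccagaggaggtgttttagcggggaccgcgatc
Top2a, chr11:99024140-99024439, minus strand: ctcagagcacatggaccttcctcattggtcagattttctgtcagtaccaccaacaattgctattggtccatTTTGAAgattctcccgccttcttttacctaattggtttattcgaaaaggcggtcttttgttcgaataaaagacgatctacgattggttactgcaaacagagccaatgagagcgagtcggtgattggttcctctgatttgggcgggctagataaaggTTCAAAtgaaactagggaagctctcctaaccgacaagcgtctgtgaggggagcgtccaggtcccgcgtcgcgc
Cdca7l, chr12:117843611-117843910, plus strand: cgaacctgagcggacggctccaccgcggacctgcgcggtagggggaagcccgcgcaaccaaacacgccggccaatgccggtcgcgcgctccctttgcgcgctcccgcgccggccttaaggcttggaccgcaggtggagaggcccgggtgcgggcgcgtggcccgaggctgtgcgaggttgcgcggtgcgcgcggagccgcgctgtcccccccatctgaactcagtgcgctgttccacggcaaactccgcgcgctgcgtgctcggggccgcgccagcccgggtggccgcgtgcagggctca
Ung, chr5:114130185-114130484, plus strand: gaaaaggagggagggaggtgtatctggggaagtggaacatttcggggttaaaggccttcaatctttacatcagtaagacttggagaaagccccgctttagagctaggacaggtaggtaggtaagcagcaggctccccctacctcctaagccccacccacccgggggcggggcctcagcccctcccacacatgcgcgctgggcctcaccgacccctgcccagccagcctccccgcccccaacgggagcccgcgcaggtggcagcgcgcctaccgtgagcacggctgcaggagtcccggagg

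The motifs searched on both strands were TTTCCCGC, TTTGGCGC, TTTCGCGC and TTTGCCGC for E2F, CACGTG for the E-box that MGA and MAX recognise, and TTTGAA for CHR. The E2F motif was in 21 of the 42 promoters (50%), against 3.29% of all 17491 genes in the table. Its 28 matches began at a median of 54.5 bases before the start, with first bases from -219 to 39 relative to it, and at Mcm5 and at Mcm6 a pair of matches overlapped. A gene with several starts was counted when any of its promoters held the motif. The E-box was in 4 promoters (Tyms, Lig1, E2f3 and Fen1; 9.52%, against 8.91% of all genes), and CHR was in 9 (21.4%, against 18.5%). The 21 genes with an E2F motif had a PCGF6 peak at the start in WT AhCre crypts, and they were 53.8% of the 39 members with such a peak. Among all genes with a WT PCGF6 peak at a start, 5.46% held the E2F motif. Only 3 of the 42 members lacked a start peak, so these shares cannot show whether motif and PCGF6 go together. A match is a run of letters and was not measured as a bound site.

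By role, the E2F motif was in 7 of 10 promoters of origin licensing (Cdc6, Cdt1, Orc1, Mcm3, Mcm5, Mcm6 and Mcm7) and in 2 of 3 of cyclins and kinases (Cdk1 and Cdk2). It was in 4 of 8 promoters of fork enzymes, 5 of 10 of the chromatin, repair and checkpoint genes and 3 of 6 of the transcription factors. None of the 4 nucleotide synthesis promoters (Rrm1, Rrm2, Tyms and Tk1) held it. The promoters of the list had a median GC content of 63.2% and 24.5 CpGs, against 57.3% and 15.0 for all genes, and all genes with a WT PCGF6 peak at a start had 62.7% and 24.0.

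**Figure D1:**
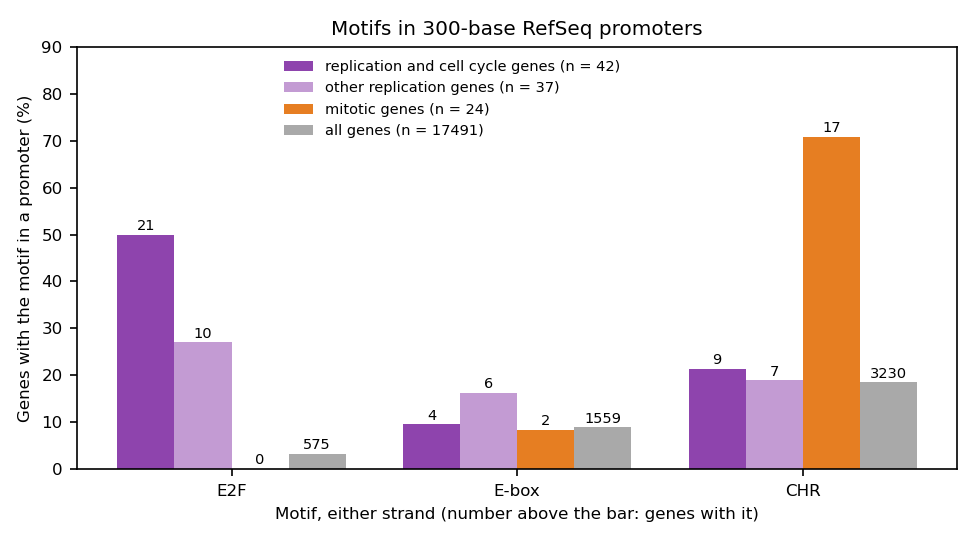
Share of genes (%) whose 300-base RefSeq promoter holds the E2F, E-box or CHR motif on either strand, for the 42 listed genes with a start, other replication genes, mitotic genes and all genes; numbers above bars are genes with the motif. The E2F bar stands at 21 of 42 for the list and at 0 of 24 for mitotic genes, and the CHR bar at 9 of 42 for the list and at 17 of 24 for mitotic genes.

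PCGF6 was the protein that most of these genes carried. In KO AhCre crypts 9 of 48 genes (18.8%) had a PCGF6 peak, against 40 of 48 (83.3%) in WT AhCre crypts, and the shares of all genes were 13.7% in KO and 39.9% in WT. In WT ESC 17 genes (35.4%) had a PCGF6 peak, against 22.7% of all genes. Counted at transcript starts alone, the peak was at 7 of 42 members in KO crypts and at 39 of 42 in WT crypts, beside 14.1% of all genes in KO and 40.6% in WT, while in ESC it was at 16 of 42, beside 23.0%. The median score of the members with a peak was 22.0 in KO crypts and 20.5 in WT crypts, where that of all genes with a peak was 15.4 in KO and 21.4 in WT. They lay close on the start, covering it at 35 of 39 members (89.7%, against 82.0% of all genes with a start peak), with a median distance of 171 bp from centre to start (232 bp for all genes).

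**Figure D2:**
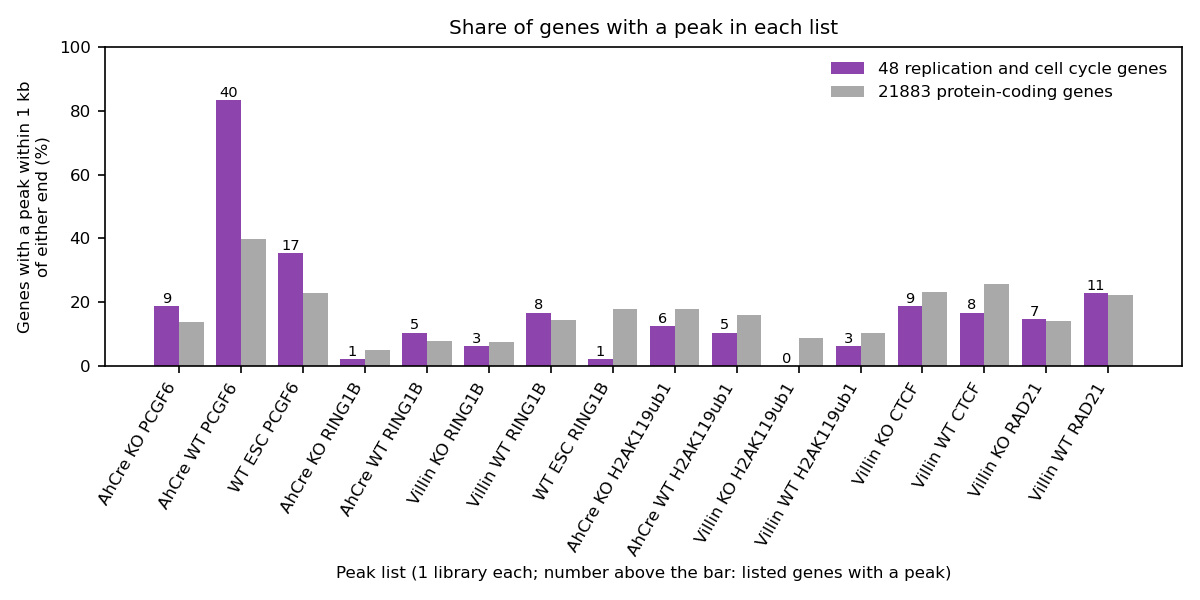
Share of genes (%) with a peak within 1 kb of either end in each of the 16 lists, for the 48 listed genes (purple, with their number above the bar) and all 21883 protein-coding genes (grey). The list stands at 40 genes for PCGF6 in WT AhCre crypts, at 9 in KO AhCre crypts, and at 11 or fewer in every list other than those of PCGF6.

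**Figure D3:**
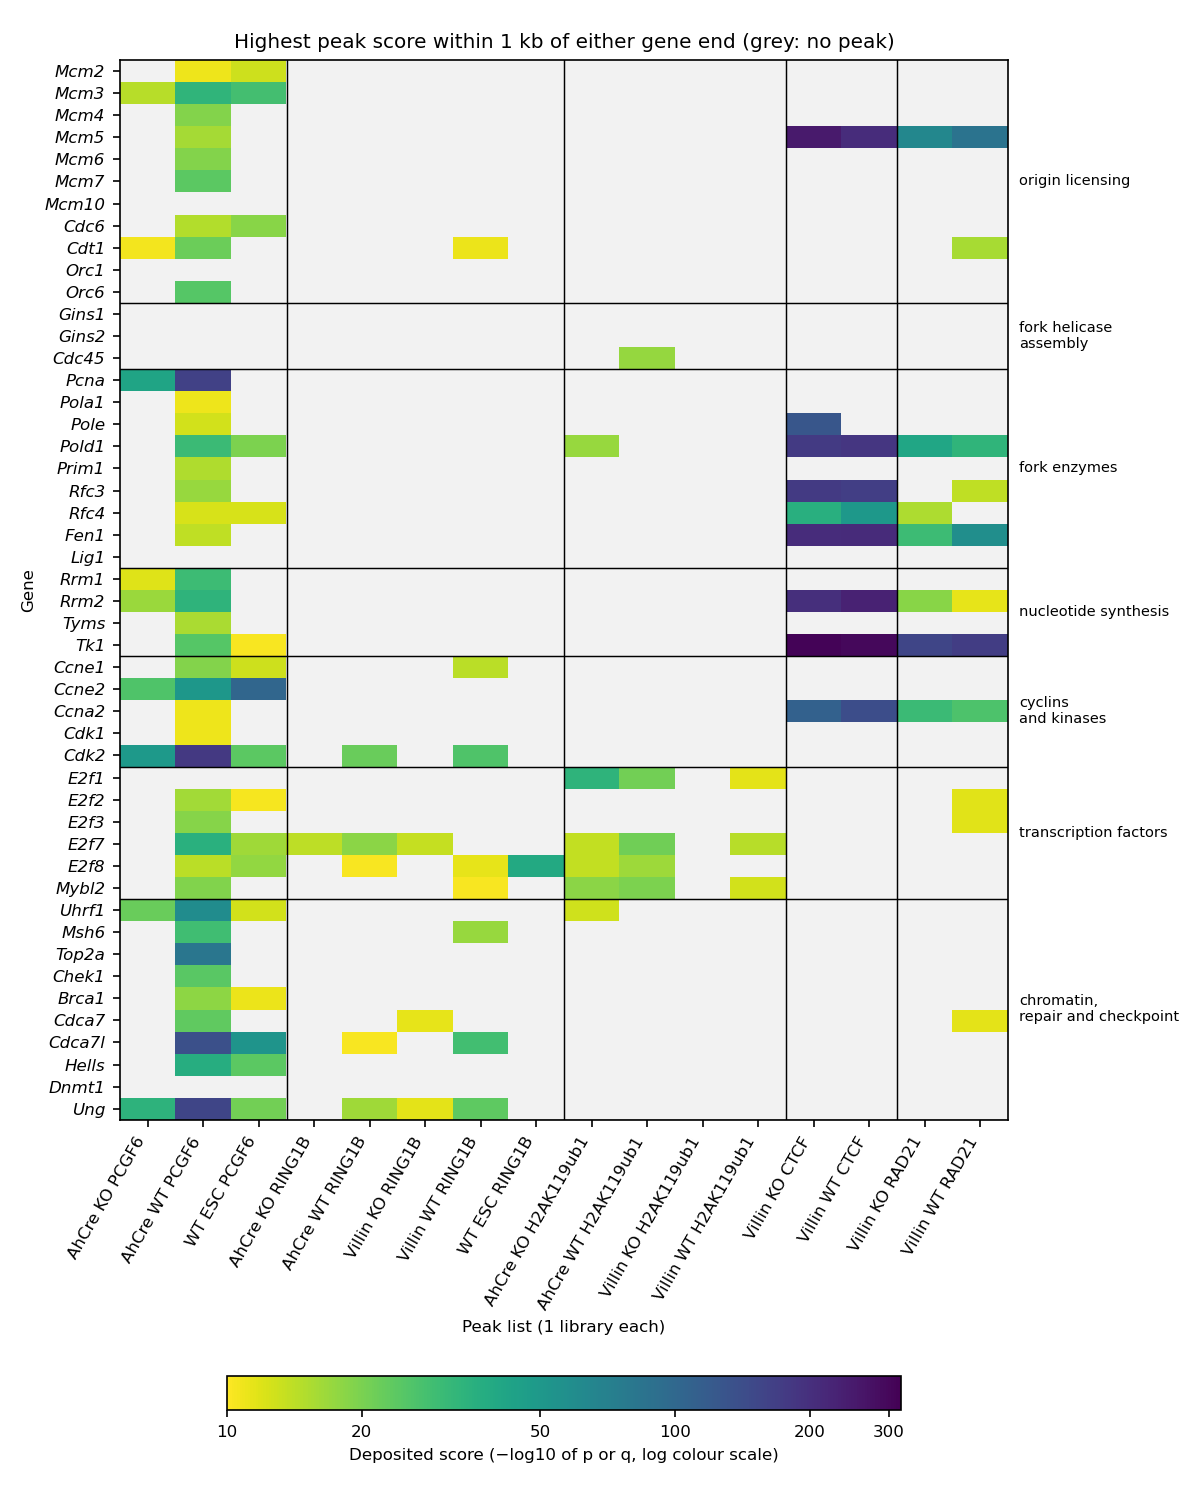
Highest peak score (−log10 of p or q, log colour scale) within 1 kb of either end of each listed gene (rows, by role) in each of the 16 lists (columns, 1 library each); grey means no peak. The WT PCGF6 column of AhCre crypts is filled at 40 genes and the KO column beside it at 9, while RING1B, H2AK119ub1, CTCF and RAD21 each fill 11 genes or fewer in a list.

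A loss means a peak within 1 kb of the gene in the WT list, none in the KO list, and none just beyond that limit in KO that overlaps the WT peak. By that rule 31 of the 40 members lost PCGF6 in AhCre KO crypts (77.5%, against 64.4% of all genes with a WT peak), 9 had a peak in both lists and none gained one. At starts 32 of 39 members lost it, against 64.9% of all genes. With both lists limited to scores of 20 or more, 15 of the 20 members left with a WT peak lost it, against 78.3% of all such genes. With the WT list shortened to the length of the KO list by score, 6 of 14 lost it, against 27.4% of all such genes.

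Read by score at the start, the 9 members with WT scores from 10 to under 15 and the 11 from 15 to under 20 lost the peak without exception, where 95.2% and 86.9% of all genes in these ranges did. From 20 to under 30, 7 of 10 members lost it (66.2% of all genes) and Cdt1, Lig1 and Rrm1 kept one. From 30 to under 60, 3 of 6 lost it (E2f7, Hells and Pold1, with 32.8% of all genes), while Mcm3, Rrm2 and Uhrf1 kept one. At 60 or more, Cdca7l and Top2a lost the peak and Ung kept it. A loss at that height was rare over the genome, at 26 of 761 genes (3.42%). Counted at either gene end, 2 of 5 members at 60 or more lost it, beside 4.05% of all genes. There Cdk2 and Pcna kept a peak as well as Ung.

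**Figure D4:**
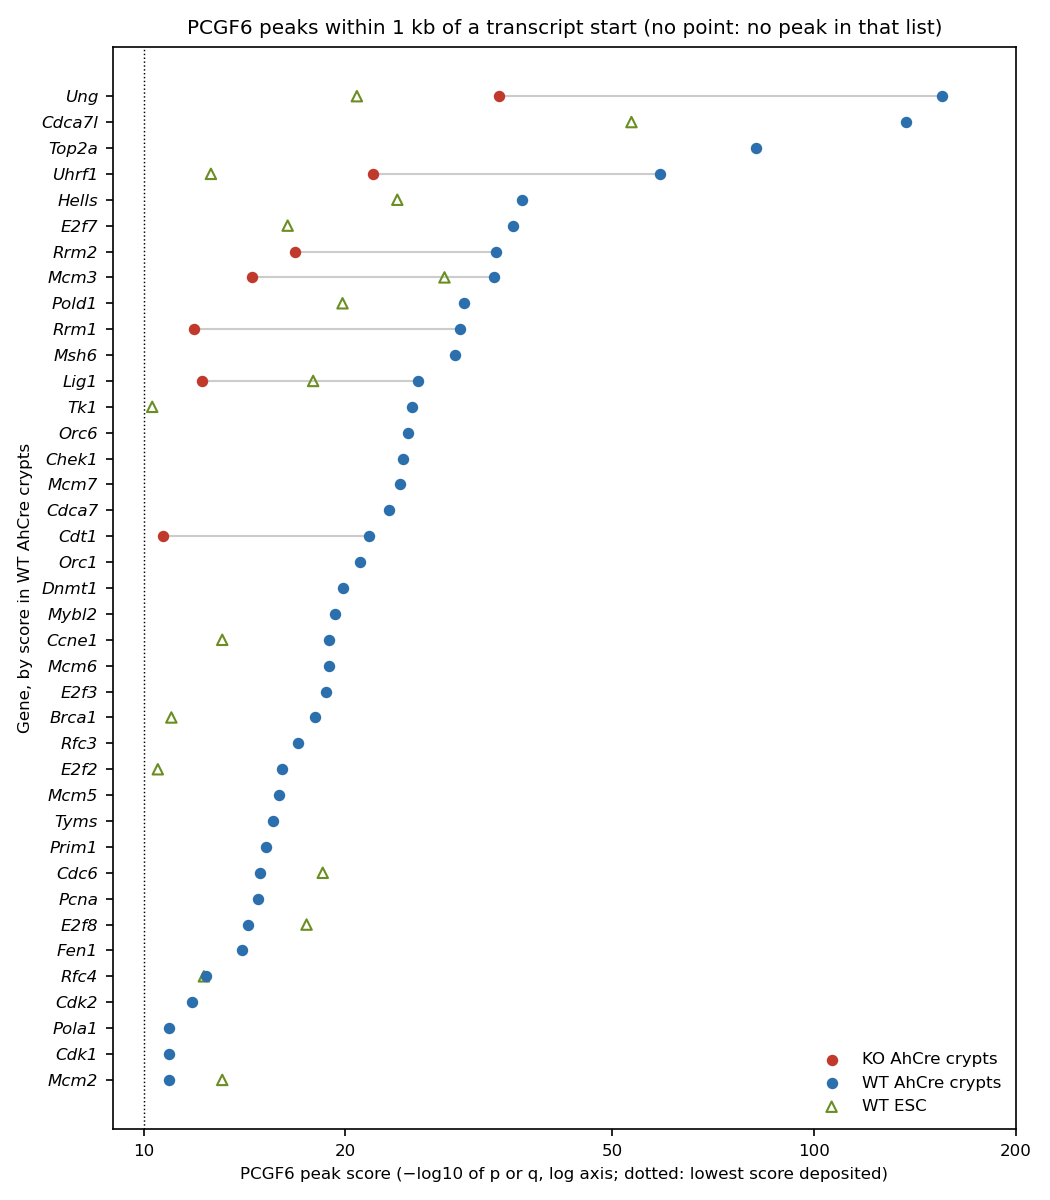
PCGF6 peak score (−log10 of p or q, log axis) within 1 kb of a transcript start of each listed gene, in KO AhCre crypts (red), WT AhCre crypts (blue) and WT ESC (triangles); genes are ordered by WT score, and a missing point means no peak in that list. Red points are at 7 of the 39 genes, each left of its blue point, and Cdca7l and Top2a have blue points at 137 and 82.0 with no red one.

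Cdca7l, a relative of the HELLS partner CDCA7, had no PCGF6 peak in KO AhCre crypts, against a score of 137 in WT AhCre crypts, and 53.4 in WT ESC. Its WT peak ran over 1961 bp, at chr12:117842334-117844294, across the start. Top2a, the topoisomerase that untangles replicated chromosomes, likewise had no KO peak, against 82.0 in WT crypts, and none in ESC. These are the members with high WT scores and nothing in the KO list.

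Ung, which removes uracil from DNA, scored 33.9 in KO crypts, against 155 in WT crypts, and 20.8 in ESC. Uhrf1, which brings the maintenance methyltransferase to replicated DNA, scored 22.0 in KO crypts, against 59.0 in WT crypts, and 12.6 in ESC. Both kept a peak at the same place, and the KO score was below the WT score. Ung's peak also lay within 1 kb of an end of the neighbouring gene Alkbh2. Hells, a chromatin remodeller, had no KO peak, against 36.7 in WT crypts, and 23.9 in ESC. Msh6, of mismatch repair, had no KO peak, against 29.1 in WT crypts, and none in ESC.

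Among the other chromatin, repair and checkpoint genes, Chek1, the checkpoint kinase, had no KO peak, against 24.4 in WT crypts. Cdca7 had no KO peak either, against 23.2 in WT crypts. Brca1, of recombinational repair, had no KO peak, against 18.0 in WT crypts, and its peak lay beside Nbr1 as well. Dnmt1, the maintenance methyltransferase, had no peak at a gene end, but a WT score of 19.8 at a transcript start inside the gene, and none there in the KO list. In this group 8 of 10 genes lost the peak at a start, against 64.9% of all genes with one, and Uhrf1 and Ung kept theirs.

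In origin licensing, the subunits Mcm2 to Mcm7 of the helicase had a WT PCGF6 peak without exception, and Mcm10, which acts when the helicase is switched on, had none. Mcm3 kept a peak, at 14.5 in KO crypts, against 33.3 in WT crypts, and 28.1 in ESC. The KO peak was 337 bp wide, at chr1:20820088-20820424, and it covers the E2F motifs printed above. Mcm7 scored 24.1 in WT crypts, Mcm4 and Mcm6 18.9 each, Mcm5 15.9 and Mcm2 10.9, and these 5 genes had no KO peak. Mcm4's peak lay also beside Prkdc and Mcm7's beside Ap4m1, so those peaks cannot be assigned to 1 gene.

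The loaders of the helicase carried PCGF6 too. Cdt1 scored 10.7 in KO crypts, close to the limit of the lists, against 21.7 in WT crypts. Cdc6 had no KO peak, against 14.9 in WT crypts, and 18.5 in ESC. Of the origin recognition subunits, Orc6 had no KO peak, against 24.8 in WT crypts, with Vps35 beside it. Orc1 had no KO peak and a WT score of 21.0 at a start that lies inside its RefSeq gene span.

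The genes that assemble the active helicase stood apart: Gins1, Gins2 and Cdc45 had no PCGF6 peak in KO crypts, WT crypts or ESC. Their nearest WT peaks lay 77159, 41904 and 24463 bp from a gene end. With Mcm10 and E2f1, whose nearest WT peaks lay 4614 and 6781 bp away, they were the 5 members with no PCGF6 peak at either end or at a start in the table, which gives none for Gins1 and Gins2. By the gene-end rule alone 8 members had none in crypts or ESC, and Orc1, Lig1 and Dnmt1 are the 3 that have one at an inner start. At the edge of the 1 kb rule, Ccna2 was the last member inside, with a peak of score 10.9 at 652 bp, and Lig1 the first outside, with one of 25.7 at 1031 bp.

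Among fork enzymes, the strong peak credited to Pcna, the sliding clamp, was not at its start. That peak scored 42.0 in KO crypts, against 164 in WT crypts, and its centre lay 5138 bp past the start in WT, at the other gene end and beside Tmem230. At the Pcna start itself there was no KO peak, against a WT score of 14.8, and that WT peak lay beside Cds2 as well. Cdk2, the kinase of S phase entry, showed the same layout: the peak of 50 in KO crypts, against 181 in WT crypts, was centred 8552 bp past its start in WT, beside Pmel and Rab5b. At the Cdk2 start there was no KO peak, against 11.8 in WT crypts. The ESC peak at Cdk2, of 24.1, lay at the far end too.

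**Figure D5:**
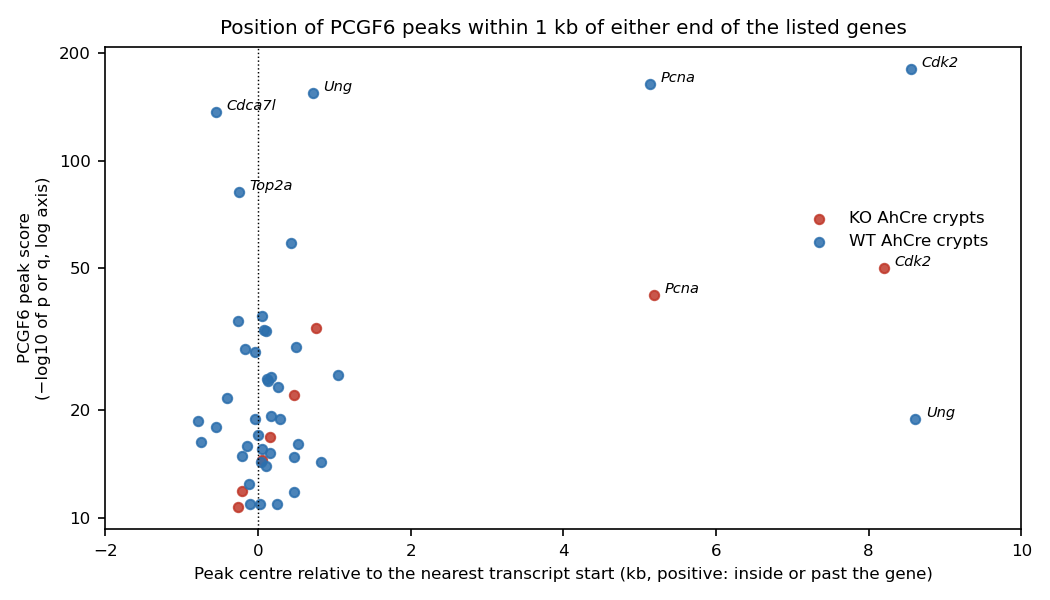
PCGF6 peak score (−log10 of p or q, log axis) against the distance of the peak's centre from the nearest transcript start (kb, positive inside or past the gene) for listed genes with a start, in KO AhCre crypts (red) and WT AhCre crypts (blue). Most points lie within 1 kb of the start at scores under 60, and the strong peaks of Pcna and Cdk2 lie 5138 and 8552 bp past it.

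The other fork enzymes had modest peaks. Lig1, which seals Okazaki fragments, scored 12.2 in KO crypts, against 25.7 in WT crypts, and 17.9 in ESC, at an inner start. Pold1, the lagging strand polymerase, had no KO peak, against 30 in WT crypts, and 19.8 in ESC, with Nr1h2 beside it. For the clamp loader, Rfc3 had no KO peak, against 17.0 in WT crypts, and Rfc4 had none, against 12.4, and 12.3 in ESC. The primase Prim1 had no KO peak, against 15.2 in WT crypts, and its partner Pola1 had none, against 10.9. The flap nuclease Fen1 had no KO peak, against 14 in WT crypts, beside Tmem258, and the leading strand polymerase Pole had none, against 12.6, beside Pxmp2. At starts 7 of 8 fork enzymes lost the peak, against 64.9% of all genes with one, and Lig1 kept it. Their median WT score at starts was 15.0. Of all genes, 95.2% lost the peak at WT scores from 10 to under 15, and 86.9% from 15 to under 20.

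The nucleotide synthesis genes split evenly. Rrm2, the regulated subunit of ribonucleotide reductase, scored 16.8 in KO crypts, against 33.5 in WT crypts. Its partner Rrm1 scored 11.9 in KO crypts, against 29.6 in WT crypts. Tk1, thymidine kinase, had no KO peak, against 25.1 in WT crypts, with Afmid beside it, and Tyms, thymidylate synthase, had none, against 15.6. Thus 2 of the 4 lost the peak, against 64.4% of all genes with a WT peak, and neither subunit of the reductase did.

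Of the cyclins, Ccne2 stood highest, with a PCGF6 score of 26.1 in KO crypts, against 50.8 in WT crypts, and 102 in ESC. It was the only member with an ESC score above 60. Ccne1, its paralogue, had no KO peak, against 18.9 in WT crypts, and 13.1 in ESC. Ccna2, the S and G2 cyclin, and Cdk1, the mitotic kinase, had no KO peak, against 10.9 each in WT crypts, the lowest score among members, which Mcm2 and Pola1 share. Ccna2's peak lay beside Bbs7 as well.

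None of the 6 transcription factors had a PCGF6 peak in KO crypts, and 5 had one in WT crypts. The shares of all genes were 13.7% in KO and 39.9% in WT, and 64.4% of those with a WT peak lost it. E2f7, an atypical E2F that represses, scored 35.5 in WT crypts and 16.4 in ESC. Its relative E2f8 scored 14.3 in WT crypts and 17.5 in ESC. Of the activators, E2f3 scored 18.7 in WT crypts, and E2f2 16.1 in WT crypts and 10.5 in ESC, while E2f1 had no peak. Mybl2, which carries the programme on to G2, scored 19.3 in WT crypts. In the WT score range of E2f8, from 10 to under 15, 95.3% of all genes lost the peak. From 15 to under 20, the range of E2f2, E2f3 and Mybl2, 86.8% of all genes lost it. In the range of E2f7, from 30 to under 60, 33.8% did. The members whose strongest WT peak also lay within 1 kb of another gene's end numbered 12 of 40, against 31.6% of all genes with a WT peak.

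The PCGF6 lists of WT AhCre crypts and WT ESC were set side by side as a description of the cell types. The 17 members with an ESC peak had a crypt peak without exception, where 69.7% of all ESC genes did. A WT crypt peak was at 83.3% of members and 39.9% of all genes, so these shares are not compared at like crypt rates. The crypt list held 17163 peaks and the ESC list 7850. A further 23 members had a peak in crypts and none in ESC, so that 42.5% of crypt members were also in the ESC list, against 39.6% of all crypt genes. With the crypt list shortened to the length of the ESC list by score, 10 members were in both, 10 in crypts alone and 7 in ESC alone. The shares of all genes were not computed for this setting, so these counts cannot be read beside them. After Ccne2 and Cdca7l, the highest ESC score was that of Mcm3. Mcm2, Brca1 and Tk1, given above without their ESC values, scored 13.1, 11.0 and 10.3 in ESC.

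RING1B lay at few of these genes, at shares near those of all genes in WT crypts. In AhCre crypts 1 member had a RING1B peak in KO and 5 in WT, beside 4.89% of all genes in KO and 7.73% in WT. In Villin crypts 3 members had one in KO and 8 in WT, beside 7.61% of all genes in KO and 14.2% in WT. In WT ESC 1 member had one, E2f8 with a score of 39.1, where 17.8% of all genes did. The WT RING1B peaks of the members overlapped a PCGF6 peak of WT AhCre crypts throughout, at 8 of 8 in Villin crypts and 5 of 5 in AhCre crypts. Of all genes with a RING1B peak in these lists, 71.8% and 62.6% had such an overlap. A WT PCGF6 peak was at 83.3% of members and 39.9% of all genes, so these shares are not compared at like PCGF6 rates.

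Of the members with WT RING1B peaks, 7 of 8 lost them in Villin KO crypts (53.7% of all genes with a WT peak) and 4 of 5 in AhCre KO crypts (44.7%). Limited to scores of 20 or more, 3 of 3 members in Villin crypts lost it (54.3% of all such genes) and 1 of 1 in AhCre crypts (43.8%). With lists of equal length, 4 of 5 lost it in Villin crypts (35.0%) and 2 of 3 in AhCre crypts (32.2%). Cdk2, E2f8 and Cdca7l lost it in both lines. Cdk2 had no RING1B peak in KO crypts of either line, against 25.8 in WT Villin and 22.0 in WT AhCre crypts, at the far end of the gene, on the strong PCGF6 peak. Cdca7l had none in KO crypts of either line, against 28.4 in WT Villin and 10.3 in WT AhCre crypts, at its start. E2f8 had none in KO crypts of either line, against 11.4 in WT Villin and 10.3 in WT AhCre crypts.

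Ung scored 11.6 for RING1B in KO Villin crypts, against 23.6 in WT Villin crypts, and had no peak in KO AhCre crypts, against 16.5 in WT AhCre crypts. In Villin crypts the remaining losses were at Msh6 (no KO peak, against 17.1 in WT), Ccne1 (none, against 14.4), Cdt1 (none, against 11.0) and Mybl2 (none, against 10.4). At a start inside its gene, Dnmt1 also had no KO Villin peak, against 10.4 in WT Villin crypts. E2f7 went its own way: it scored 13.6 in KO Villin crypts with no WT Villin peak, and 14.1 in KO AhCre crypts, against 18.2 in WT AhCre crypts. E2f7 and Cdca7, at 11.3 in KO Villin crypts with no WT peak, were the 2 of 3 members with a KO peak that gained one, against 14.8% of all genes with a Villin KO peak.

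The H2AK119ub1 mark lay at few members and mainly at the transcription factors. In AhCre crypts 6 members had a peak in KO and 5 in WT, beside 17.7% of all genes in KO and 16% in WT. In Villin crypts none had a peak in KO and 3 had one in WT, beside 8.84% of all genes in KO and 10.4% in WT. E2f7 scored 13.7 in KO AhCre crypts, against 21.1 in WT AhCre crypts, and had no peak in KO Villin crypts, against 14.6 in WT Villin crypts. Mybl2 scored 18.2 in KO AhCre crypts, against 19.9 in WT AhCre crypts, and had none in KO Villin crypts, against 12.6 in WT Villin crypts. Both genes thus kept the mark in the AhCre list and not in the Villin list.

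E2f8 scored 13.7 for the mark in KO AhCre crypts, against 16.7 in WT AhCre crypts, and had no peak in Villin crypts. E2f1, the first of the activators, scored 33.4 in KO AhCre crypts, against 20.8 in WT AhCre crypts, and had none in KO Villin crypts, against 11.6 in WT Villin crypts. These E2f1 peaks lay at its far end beside Necab3, and within 1 kb of its start there was a single peak, of 12.9, in KO AhCre crypts. Just beyond that distance upstream, a peak scored 14.5 in KO AhCre crypts, against 16.1 in WT AhCre crypts. Pold1's peak, of 17.0 in KO AhCre crypts with none in WT, also lay at the far end, beside Spib, while Uhrf1's, of 12.9 in KO AhCre crypts with none in WT, covered its start. Cdc45 had a WT AhCre peak of 17.4 at its far end, beside Cldn5, whose KO partner lay outside the window.

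In AhCre KO crypts 0 of 5 members lost the mark (12.9% of all genes with a WT peak), and 2 of 6 gained it (20.2% of all genes with a KO peak), Uhrf1 and Pold1. In Villin KO crypts 3 of 3 lost it (29.3% of all genes), and with scores of 20 or more no member had a Villin peak. The WT AhCre mark overlapped a PCGF6 peak at 3 of 5 members, E2f7, E2f8 and Mybl2, against 36.0% of all genes with the mark. Here too the members carried WT PCGF6 at a higher share than all genes.

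CTCF lay at much the same members in both genotypes, with tall peaks. In Villin crypts 9 members had a CTCF peak in KO and 8 in WT, beside 23.2% of all genes in KO and 25.5% in WT. Their median score was 178 in KO and 194 in WT, against 88.3 in KO and 79.8 in WT over all genes with a peak. Tk1 scored 310 in KO crypts, against 299 in WT crypts. Mcm5 scored 248 in KO crypts, against 205 in WT crypts, centred 749 bp before its start in KO and 691 bp before it in WT. Rrm2 scored 200 in KO crypts, against 230 in WT crypts. These peaks stayed tall in both genotypes. Pold1 scored 178 in KO crypts, against 184 in WT crypts, and Rfc3 178 in KO, against 168 in WT. Rfc4 had the lowest, 36.0 in KO crypts, against 50.4 in WT crypts. Fen1 scored 206 in KO crypts, against 210 in WT crypts, and Ccna2 109 in KO, against 142 in WT. None of the 8 lost CTCF in KO, where 12.0% of all genes did, and Pole's KO peak of 127 had its WT partner outside the window. At transcript starts inside the gene, E2f2 also had CTCF, at 62.2 in KO crypts, against 67.9 in WT crypts, and E2f3 had a peak of 12.6 in KO crypts with none in WT crypts. Dnmt1 had CTCF at an inner start too, at 23.0 in KO crypts, against 29.5 in WT crypts.

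Each of these 8 genes had a WT CTCF peak that overlapped a PCGF6 peak of WT AhCre crypts, against 57.4% of all genes with a CTCF peak. At Fen1 this was a CTCF peak of 38.9 at the start, not that of 210 at the far end. A WT PCGF6 peak was at 83.3% of members and 39.9% of all genes, so the overlap shares are not compared at like PCGF6 rates. A WT CTCF peak overlapped a WT RAD21 peak at 7 of the 8 genes, all but Rfc4, against 64.0% of all genes. Read from the other side, 7 of 11 members with WT RAD21 had it on CTCF, against 69.4% of all genes.

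RAD21 was at 7 members in KO Villin crypts and at 11 in WT Villin crypts, beside 14% of all genes in KO and 22.2% in WT. It was in both lists at 6 genes that also carried CTCF. Tk1 scored 156 in KO crypts, against 171 in WT crypts. Mcm5 scored 64.3 in KO crypts, against 85.1 in WT crypts. Pold1 scored 41.1 in KO crypts, against 33.1 in WT crypts, and Rrm2 18.4 in KO, against 11.4 in WT. Fen1 scored 29.6 in KO crypts, against 57.6 in WT crypts, and Ccna2 30.1 in KO, against 26.3 in WT. Of the 6 genes, Rrm2, Pold1 and Ccna2 scored higher in KO, and Tk1, Mcm5 and Fen1 scored higher in WT.

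The 5 of 11 members that lost RAD21 (41.1% of all genes with a WT peak) had low WT scores and no KO peak: Cdt1 at 15.8 in WT, Rfc3 at 13.9, E2f2 and E2f3 at 11.7 each and Cdca7 at 11.6. Of these, Rfc3 had CTCF within 1 kb of the same gene end. At starts 7 of 11 members lost RAD21, against 49.4% of all genes: Orc1, of 13.1 in WT, and Fen1, of 14.2 in WT, were added, the Fen1 peak in both lists being at its far end. With scores of 20 or more, 0 of 5 members lost RAD21, and the share of all genes was not computed for this setting. Rfc4, at 15.4 in KO crypts with no WT peak, was the 1 of 7 members with a KO peak that gained it, against 9.00% of all genes with a KO peak.

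The lists of related genes place these counts. Of all genes, 13.7% had a PCGF6 peak in KO AhCre crypts, 39.9% in WT AhCre crypts and 22.7% in ESC. Of all genes with a WT AhCre peak, 64.4% lost it. Of 51 other replication genes, such as Orc2 to Orc5, Rfc1 and the RPA subunits, 12 had a PCGF6 peak in KO AhCre crypts, 44 in WT AhCre crypts and 21 in ESC, and 31 of the 44 lost it. Of 30 mitotic genes, 7 had one in KO crypts, 19 in WT crypts and 7 in ESC, and 12 of the 19 lost it. Their share in ESC (23.3%) and their share lost (63.2%) were near those of all genes. Of 20 genes for other E2F subunits, pocket proteins, D cyclins and their kinases and inhibitors, 7 had one in KO crypts, 11 in WT crypts and 9 in ESC, and 4 of the 11 lost it. The other replication genes thus had PCGF6 in WT crypts at a share (86.3%) near that of the members.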

How the data were processed

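ChIP-seq was done on formaldehyde-fixed, sonicated chromatin of small intestinal crypts and E14 ESC, with 22 samples, of which 16 have a peak list and 6 are inputs, not used here. The deposited score of each peak is a −log10 p or q value that the authors computed, and which of them is not stated. Peaks were called per sample against the WT input of the cell type, per the labels. Per the submitters' processing notes, MACS2 2.1.1 and Bowtie (1.1.2 and 1.2.2) were used with genomes hg38, mm10 and dm6, whose roles are not given. Chromatin for H2AK119ub1 was spiked with 5% Drosophila S2 chromatin, and no spike count was used here. Read depth and caller settings are not given in the sources used here, so no interval or detection limit was computed.

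Peaks on chromosomes 1 to 19, X and Y were kept and starts were converted to 1-based positions. Genes were 21883 protein-coding genes of the RefSeq table of GRCm38.p6. A peak belonged to a gene when it lay within 1 kb of either gene end, and a gene's score is its highest peak there. Overlap means at least 1 bp. Transcript starts and promoters were available for 17491 genes and 42 members. Counting was done in Python 3.11.15 with numpy 2.4.6 and pandas 2.3.3 and was checked on planted peaks and against bedtools 2.31.1. With 1 library per group no test was run, and members are read beside the share of all genes.

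The members, their roles and the lists of other replication, E2F and pocket protein, and mitotic genes were chosen with earlier results of these data known. Values in every list are given for the 10 members with the highest WT AhCre PCGF6 scores, members with RING1B or H2AK119ub1 in crypts, members that lose or gain CTCF or RAD21, and members without PCGF6, where a list not mentioned for a gene holds no peak of it. Genes outside the list are named where they share a member's peak. Alternatives were windows of 0 and 500 bp and of 2 and 5 kb, scores of 20 or more, lists of equal length, loss without the overlap condition, the nearest peak in place of the highest, starts only and a shorter motif window.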

Additional observations from a re-analysis of the deposited data

Results flagged for a closer look

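The number of members with H2AK119ub1 differed between KO and WT in opposite directions in the Cre lines. The count of members with a peak, KO minus WT, was 1 in AhCre crypts (6 in KO, 5 in WT) and -3 in Villin crypts (0 in KO, 3 in WT). Over all genes the same difference was 363 in AhCre crypts and -331 in Villin crypts, with the same signs. The difference between the lines was not tested, since each group had 1 library, and the lines also differ in the length of their lists: 16039 peaks in KO and 13175 in WT AhCre crypts, and 5492 in KO and 6219 in WT Villin crypts. With the lists of each pair brought to equal length, 0 members lost and 2 gained the mark in AhCre KO crypts, and 3 lost and 0 gained it in Villin KO crypts. The shares of all genes were not computed for equal lengths of these lists.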

How the results depend on the processing

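No paired analysis was possible because each group had 1 library. Of 247 alternative values of 51 results, 175 kept within 1.5 times of the reported count or gave the same reading, and 72 moved. The medians of scores and the shares of the members' promoters with a motif did not move under the alternatives run for them.

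With a window of 0 bp, the members with a peak were 5 for KO AhCre PCGF6, 10 for ESC PCGF6, 0 for KO AhCre RING1B, 3 for WT Villin RING1B, 3 for KO and 2 for WT AhCre H2AK119ub1, 0 for WT Villin H2AK119ub1, 4 for KO and 4 for WT CTCF, and 2 for KO and 5 for WT RAD21. There, 2 members lost and 1 gained Villin RING1B, 0 lost Villin H2AK119ub1, 3 lost and 0 gained RAD21, 9 had PCGF6 in crypts and ESC and 1 in ESC alone. With 500 bp, 3 had WT AhCre H2AK119ub1. With 2 kb, 1 had KO Villin H2AK119ub1 and 13 had WT CTCF, and 1 lost and 1 gained CTCF. With 5 kb, 4 had ESC RING1B, 11 KO and 9 WT AhCre H2AK119ub1, 3 KO and 7 WT Villin H2AK119ub1, 19 KO and 20 WT CTCF, and 14 KO and 20 WT RAD21. There, 1 lost AhCre H2AK119ub1, 5 lost and 1 gained Villin H2AK119ub1, 1 gained CTCF and 1 had PCGF6 in ESC alone.

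With scores of 20 or more, 5 had KO and 20 WT AhCre PCGF6, 6 ESC PCGF6, 0 KO and 1 WT AhCre RING1B, 0 KO and 3 WT Villin RING1B, 1 KO and 2 WT AhCre H2AK119ub1, 0 WT Villin H2AK119ub1 and 5 WT RAD21. There, 15 lost PCGF6, 1 lost AhCre RING1B, 3 lost and 0 gained Villin RING1B, 1 lost and 0 gained AhCre H2AK119ub1, 0 lost Villin H2AK119ub1, and 0 lost and 0 gained RAD21, while 6 had PCGF6 in crypts and ESC and 14 in crypts alone. With lists of equal length, 6 lost and 1 gained PCGF6, 2 lost AhCre RING1B, 4 lost Villin RING1B, 2 lost and 2 gained RAD21, and PCGF6 was in both at 10, in crypts alone at 10 and in ESC alone at 7. Without the overlap condition, 1 lost AhCre H2AK119ub1 and 1 gained CTCF. At starts only, 3 had WT AhCre H2AK119ub1 and 1 gained CTCF, and for loss, gain and ESC this setting was chosen after seeing the data. The cause of these moves was not tested, beyond the fewer or more peaks that each setting keeps. At other windows no share of all genes was computed. With scores of 20 or more and with equal lengths, it was computed for loss of PCGF6 and RING1B alone.

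Of the 40 members with WT AhCre PCGF6, 9 scored under 15 and 20 scored 20 or more, and the lists hold nothing under 10.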

Other observations

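The mitotic genes held a different promoter motif from the replication genes. In WT AhCre crypts PCGF6 was at a start of 15 of 24 mitotic genes (62.5%), beside 40.6% of all genes. For the list it was at a start of 39 of 42 genes (92.9%). Of 24 mitotic promoters, 17 (70.8%) held CHR, among them those of Plk1, Aurka, Cdc20 and Ccnb2, and 0 held the E2F motif. Of 42 promoters of the list, 9 held CHR and 21 the E2F motif. Of 37 promoters of other replication genes, 7 held CHR and 10 (27.0%) the E2F motif, among them Orc3, Pole2 and Clspn. Of 14 promoters of other E2F, pocket protein and D-cyclin genes, 7 (50%) held the E-box, among them Cdk4, Cdk6 and Tfdp1, and 3 the E2F motif. With the shorter motif window only 4 of the 14 (28.6%) held the E-box, beside 6.81% of all genes. In the full promoters, 18.5% of all genes held CHR, 3.29% the E2F motif and 8.91% the E-box. These lists were chosen with results of the data known, and no test was made between them.

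In ESC the E2F, pocket protein and D-cyclin genes carried RING1B at 5 of 20, with scores up to 326, while the list had it at 1 of 48, the other replication genes at 0 of 51 and the mitotic genes at 0 of 30, beside 17.8% of all genes.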
